A study of Mus musculus with 4 samples.

Results

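The sortilin family receptors, Sorl1, Sort1, Sorcs1, Sorcs2 and Sorcs3, were examined in single-nucleus RNA sequencing (snRNA-seq) data of the mouse lateral septum (LS). All 5 genes were found by symbol among the 32285 genes of the count tables. The family was chosen because Sorl1 had been seen to be lower in LS neurons of the nude and BALB/c libraries, that is, it was selected on these values, so levels of LS neurons are given as a description and were not tested for any member. Nuclei came from microdissected, snap-frozen LS tissue of male mice that the labels put at 6 to 8 weeks of age, with the tissues of 3 mice of 1 strain pooled in each of 4 libraries. The C57J 1 and C57J 2 libraries were from 2 separate sets of wild-type C57BL/6JNifdc mice, the nude library from BALB/c nude mice and the BALB/c library from BALB/c mice. Nude mice lack functional Foxn1, the transcription factor that thymic epithelium needs, and are therefore T-cell deficient. The libraries do not separate mice, and with a single library of nude and of BALB/c mice, strain, library and mouse cannot be told apart within these groups. C57J 1 belonged to batch 1 of the labels, whereas the other libraries belonged to batch 2.

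Sortilins are type I membrane receptors with a Vps10p domain in the lumen or outside the cell, and they sort cargo proteins between the Golgi, endosomes and the cell surface. SorLA, the product of Sorl1, binds the amyloid precursor protein and the retromer complex, retains the precursor in the Golgi and recycles it away from the endosomes where it is cleaved, and SORL1 is a risk gene for Alzheimer's disease. Sortilin (Sort1) binds neurotensin, progranulin and, together with the neurotrophin receptor Ngfr, the precursors of neurotrophins. Sorcs1 directs synaptic adhesion molecules and receptors to the surface of neurons, and Sorcs2 is a co-receptor for the precursor of brain-derived neurotrophic factor. The LS is a limbic relay composed mostly of GABAergic neurons, which regulates anxiety, fear and social behavior.

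In the GENCODE vM21 annotation of GRCm38 (mm10), Sorl1 occupied chr9:41964720-42124297 on the minus strand and Sort1 chr3:108284082-108361511 on the plus strand. Sorcs2 occupied chr5:36017180-36398139 on the minus strand. Sorcs3 (chr19:48206025-48805505, plus strand) and Sorcs1 (chr19:50143299-50678646, minus strand) lay 1.34 Mb apart on the same chromosome. The spans ranged from 77.4 kb for Sort1 to 599.5 kb for Sorcs3, and annotated exons covered 9.78% of the span of Sort1 but 1.19% of that of Sorcs3. In nuclei, in which unspliced RNA is abundant, a long intron can add reads, so levels were compared for 1 gene at a time between cells and never between genes. No run of 50 bases in the spliced transcripts of a member occurred in those of another. Gm43099, which the count tables do not hold, overlapped Sort1 on the same strand. Antisense genes overlapped Sorl1, Sort1 and Sorcs1 on the opposite strand. The most abundant of these in LS neurons, Gm45352 within Sorcs1, was at 6.07, 11.9, 11.1 and 7.93 counts per 1000000 UMIs of the class (CPM) in C57J 1, C57J 2, nude and BALB/c.

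The sequences before the first base of Sorl1 and of Sorcs1 are shown because the family was selected on Sorl1 in LS neurons and because Sorcs1 was the only member called in another class. Each is the 250 bases upstream of the start in RefSeq (GRCm38.p6), read 5′ to 3′ on the strand of the gene. Capitals mark GGGCGG, a GC box, and CACGTG, an E-box, on either strand, and neither motif overlapped another here.
Sorl1 (chr9:42124298-42124547, minus strand): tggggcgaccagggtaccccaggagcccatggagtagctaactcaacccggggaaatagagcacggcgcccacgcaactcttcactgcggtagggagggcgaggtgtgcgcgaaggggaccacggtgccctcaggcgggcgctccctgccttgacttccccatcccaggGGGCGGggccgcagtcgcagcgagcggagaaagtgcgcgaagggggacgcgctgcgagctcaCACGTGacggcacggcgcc
Sorcs1 (chr19:50678647-50678896, minus strand): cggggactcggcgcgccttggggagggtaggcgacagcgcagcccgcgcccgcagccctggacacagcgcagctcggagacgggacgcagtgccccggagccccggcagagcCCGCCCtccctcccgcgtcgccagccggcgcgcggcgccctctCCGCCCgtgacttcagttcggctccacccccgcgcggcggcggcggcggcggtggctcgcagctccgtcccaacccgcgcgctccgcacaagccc
The window before the first base of Sorl1 held 1 GC box, 1 E-box and 26 CpG dinucleotides at 69.6% GC, and the Sorcs1 window 2 GC boxes and 41 CpGs at 79.6% GC. RefSeq also lists a start within Sorl1, and the window before it (chr9:42077214-42077463, minus strand) held 9 CpGs at 47.2% GC and 0 of either motif. The median of all 32851 RefSeq windows of the same length was 52.4% GC and 6 CpGs. Among all windows, 32.7% held GGGCGG or its reverse complement CCGCCC and CACGTG was in 6.02%. Neither sequence held TATAAA (the TATA motif), found on either strand in 12.4% of all windows, or CCAAT, found in 33.8%. A match gives the letters only, and binding was not measured.

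The libraries held 72912922 to 125998527 unique molecular identifiers (UMIs, each 1 counted RNA molecule) in 12558 to 17025 barcodes. After the quality limits and removal of predicted doublets, 10913 to 13075 nuclei per library remained at a median of 4031 to 8332 UMIs, and BALB/c was the deepest. Of 49203 distinct barcodes, 222 occurred in more than 1 library. Nuclei formed 32 clusters, 13 of which were LS neurons by Trpc4, Dgkg, Homer2 and Oprm1, and these held 20680 nuclei. Frem2, the remaining LS marker, stayed under 3 CPM in them. Other neuron clusters were named by markers (Lhx6 GABAergic, cholinergic, striatal) or by their 2 leading genes alone. None of the members entered the clustering. The cluster led by Gm42418 and Hspa8 had too few markers of any type, stayed unnamed and entered no fit. The astrocyte class holds 725 nuclei, of 7572, from a cluster that scored 0.983 on ependymal and 0.629 on astrocyte markers. A score is the mean, over a list, of each marker's level relative to its highest cluster, so the scores do not compare the lists' levels. Dkk3, by which the study marks an astrocyte subcluster, was among the 10 leading genes of these nuclei. Without them (chosen after seeing the data) the mean CPM of astrocytes was 132 for Sorl1, 125 for Sort1, 184 for Sorcs1, 233 for Sorcs2 and 73.8 for Sorcs3, each within 1 SD of the class mean, and no member was called there.

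Each member had its own distribution over cell classes. Sort1 was highest in oligodendrocytes and microglia, Sorcs1 in the oligodendrocyte lineage and LS neurons, Sorcs2 in Foxp2 Chst9 striatal neurons and astrocytes, and Sorcs3 in Slc17a8 Pde11a and Lhx6 GABAergic neurons, whereas Sorl1 was spread over astrocytes, striatal neurons and several other classes. Every member was found in every library of all 17 classes. Levels are given as the mean ± SD over the 4 libraries.

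Sorl1 ranged 5.94-fold, from 128 ± 22.98 in astrocytes, 124 ± 23.4 in Rarb Prkch striatal neurons and 119 ± 24.3 in Foxp2 Chst9 striatal neurons down to 31.3 ± 6.99 in oligodendrocyte precursors and 21.6 ± 10.8 in newly forming oligodendrocytes. Neighbouring classes in this order overlapped over the libraries in all but 1 of 16 pairs, and the top classes did not differ beyond their spread. Sort1 reached 219 ± 39.4 in oligodendrocytes and 172 ± 21.9 in microglia, and these overlapped. The lowest microglia library (145) lay above the highest astrocyte library (132), which was the only separate step in the order of Sort1. From the astrocytes down to LS neurons (75.8 ± 2.92) the order fell gradually with overlapping libraries, and oligodendrocyte precursors (38.99 ± 13.4) and newly forming oligodendrocytes (35.2 ± 8.63) were the lowest.

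Sorcs1 was at 903 ± 26.3 in oligodendrocytes, 859.6 ± 61.9 in oligodendrocyte precursors and 845 ± 43.5 in LS neurons, and lowest in cholinergic neurons (68.97 ± 44.1). None of its 16 neighbouring pairs separated, although the ends of the order lay 13.1-fold apart. Sorcs2 showed the clearest order: Foxp2 Chst9 striatal neurons (268 ± 14.0), astrocytes (224 ± 12.9) and LS neurons (154 ± 8.60) were each separate from the next class in all 4 libraries, and the remaining classes lay between 27.0 and 102. The other striatal classes were lower in Sorcs2, with 77.1 ± 24.9 in Rarb Prkch and 42.1 ± 12.3 in Gpr149 Pkib striatal neurons. Sorcs3 was at 943 ± 184 in Slc17a8 Pde11a neurons, 864 ± 115 in Lhx6 GABAergic neurons and 701 ± 84.5 in Ebf2 Ebf3 neurons, and lowest in astrocytes (75.5 ± 30.7), Gpr149 Pkib striatal neurons (62.6 ± 21.8) and newly forming oligodendrocytes (54.1 ± 22.7). LS neurons (308 ± 13.7) lay in the middle of its order.

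**Figure D1:**
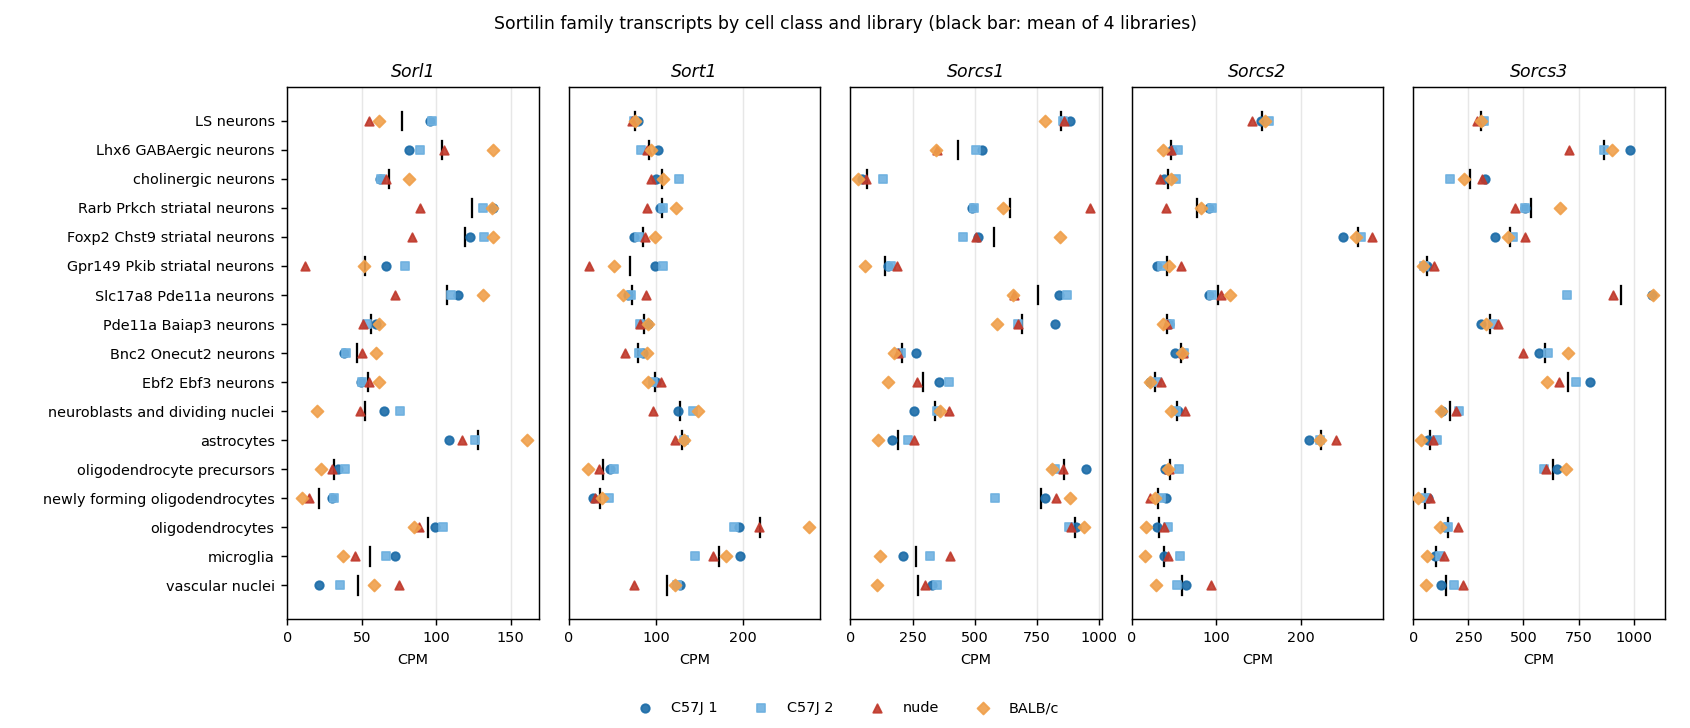
Levels of the members (CPM, linear axes from 0) in 17 cell classes, with 1 point per library and a black bar at the mean of the 4 libraries. The axes differ between genes. Sorl1 in LS neurons is 95.8 and 97.3 in the C57J libraries and 54.5 and 61.5 in nude and BALB/c, and Sort1 peaks in oligodendrocytes.

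Across 29 cell types (the classes other than LS neurons and the 13 LS neuron clusters), the profiles of the members, as log2(CPM + 1) averaged over libraries, were mostly dissimilar. Pearson's r was 0.60 for Sorl1 with Sorcs2 and -0.41 for Sort1 with Sorcs1, and the other pairs lay between -0.18 and 0.37. These coefficients are descriptions, since the types share the libraries and their depth. Among 11379 genes at 20 or more CPM in at least 1 type, the profiles most like Sorl1 were those of Dgkb (r = 0.67), Gabra4 (r = 0.65) and Mtx2 (r = 0.62). Dgkb encodes a diacylglycerol kinase and Gabra4 a subunit of the GABA-A receptor. Those most like Sort1 were Fnbp1 (r = 0.74), Prpf18 (r = 0.73) and Retreg1 (r = 0.73), of which Retreg1 encodes a receptor for autophagy of the endoplasmic reticulum. For Sorcs1 they were Kcna1 (r = 0.74), Gm43507 (r = 0.72) and Zfp1 (r = 0.70), of which Kcna1 encodes a voltage-gated potassium channel, and for Sorcs2 Wwc1 (r = 0.80), Neu2 (r = 0.76) and Celf2 (r = 0.75). The profile of Sorcs3 was nearest to 4930452B06Rik (r = 0.81), Gm19938 (r = 0.77) and Morc4 (r = 0.74).

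In the oligodendrocyte lineage the members changed places. Sort1 and Sorl1 were low in precursors and newly forming oligodendrocytes and high in mature oligodendrocytes, Sorcs3 was high in precursors and low afterwards, and Sorcs1 was high throughout. Clusters of a lineage were compared here as a description.

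Sort1 in precursors was 47.1 and 52.1 CPM in C57J 1 and C57J 2, 34.4 in nude and 22.3 in BALB/c, and in mature oligodendrocytes it was 195, 189, 218 and 275 in the same order. Its lowest oligodendrocyte library was well above its highest precursor library, and newly forming oligodendrocytes (27.2, 46.03, 29.5 and 38.2) overlapped the precursors. Sorl1 was 34.3, 38.7, 29.7 and 22.3 in precursors, 29.9, 31.6, 14.7 and 10.2 in newly forming oligodendrocytes and 98.9, 104, 88.1 and 85.2 in mature oligodendrocytes. In each of these stages both libraries of the BALB/c background were below both C57J libraries. The same held for 20.9% of gene and class pairs in 12 classes, which leave out the newly forming stage. With nuclei thinned to equal depth, the shares of precursors with a Sorl1 UMI overlapped, at 2.14%, 3.51%, 2.85% and 2.81% in the same order. In mature oligodendrocytes these shares did not overlap, at 9.52%, 9.05%, 8.97% and 7.04%, but C57J 2 and nude nearly met. Their exact 95% intervals, which take nuclei as units, overlapped, at 7.59 to 10.7% for C57J 2 and 7.34 to 10.8% for nude. The newly forming values rest on only 11, 11, 2 and 4 UMIs. The exact Poisson 95% intervals there were 1.78 to 53.2 CPM for nude and 2.78 to 26.1 CPM for BALB/c. The C57J values, from 11 UMIs each, have counting error of their own, so these intervals alone do not show a difference.

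Sorcs3 went the other way, from 653, 594, 601 and 691 CPM in precursors to 67.99, 51.8, 73.6 and 22.9 in newly forming and 142, 157, 205 and 121 in mature oligodendrocytes. No library of the later stages reached the precursor range. The Sorcs3 level of mature oligodendrocytes followed that of neuron markers over the libraries, and the part of neuron RNA in it was not tested. Sorcs1 stayed between 581 and 948 in all stages and libraries. Sorcs2 was low, between 17.2 and 55.5, and its stages overlapped.

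**Figure D2:**
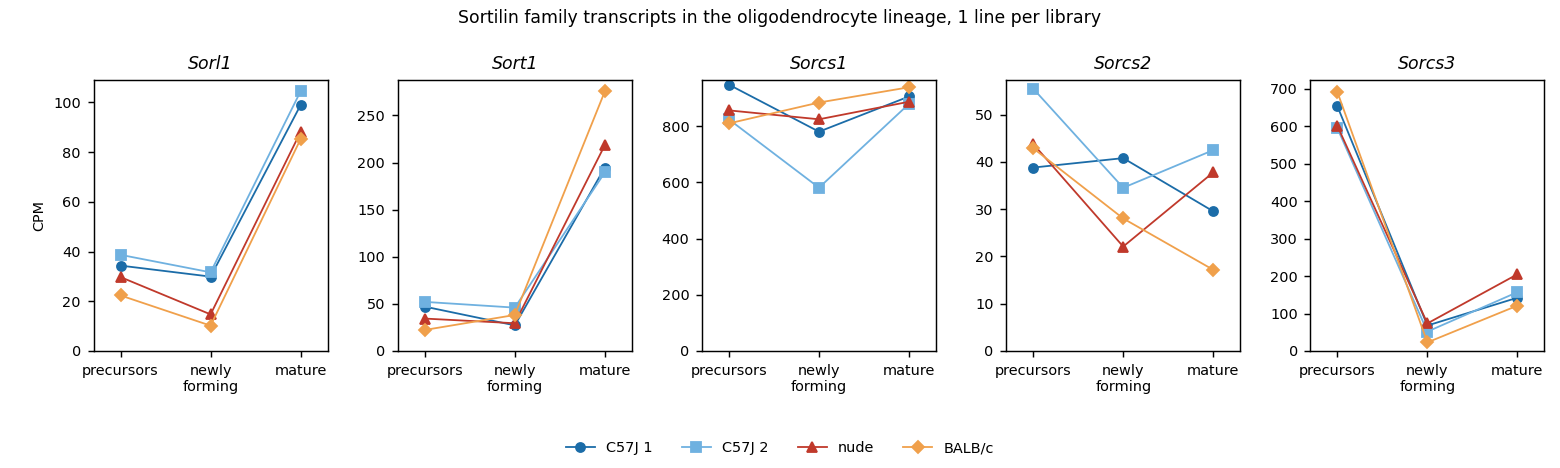
Levels of the members (CPM, linear axes from 0 that differ between genes) in oligodendrocyte precursors, newly forming and mature oligodendrocytes, with 1 line per library. Sort1 in mature oligodendrocytes lies between 189 and 275, above the 22.3 to 52.1 of the precursors, and Sorcs3 runs in the opposite direction.

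Sorl1 in LS neurons chose the family and is described first without a test. Its level was 95.8 and 97.3 CPM in C57J 1 and C57J 2, 54.5 in nude and 61.5 in BALB/c, from 4388, 3322, 2273 and 3626 UMIs. Both libraries of the BALB/c background were below both C57J libraries, as was the case for 26.8% of the 18648 genes fitted in this class. The fitted log2 fold change of the BALB/c background against C57J was -0.71 (SE 0.094), and 9.72% of genes had one below -0.5. Within batch 2, the log2 ratios to C57J 2 were -0.83 for nude and -0.66 for BALB/c. The exact Poisson 95% intervals, which cover counting error only, were 52.3 to 56.8 CPM for nude and 59.5 to 63.5 CPM for BALB/c, and did not overlap. The remaining members had fitted log2 fold changes of -0.060 to -0.033 in the same class.

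In all 13 LS clusters both BALB/c-background libraries were below both C57J libraries, against 23.9% of gene and cluster pairs, and in 8 the fitted log2 fold change was below -0.5, against 9.05% of pairs. Clusters share the 4 libraries and are not independent of each other. The size differed between clusters. Pax6 Eya4 neurons, which had the highest Sorl1 level, showed 208 and 225 CPM in C57J 1 and C57J 2, 77.4 in nude and 90.4 in BALB/c, a fitted log2 fold change of -1.33. In Dach2 Tafa1 neurons the level was 125, 127, 50.3 and 47.5 in the same order of libraries (-1.32), in Met Stac2 neurons 123, 122, 51.4 and 63.0 (-1.04) and in Pde1c Mob3b neurons 149, 141, 66.5 and 78.8 (-0.92). The C57J pair lay close together in each of these clusters, far above the nude and BALB/c pair.

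The smallest differences were in Ndst4 Cdh23 neurons, with 48.8 and 53.5 CPM in C57J 1 and C57J 2, 40.5 in nude and 48.1 in BALB/c (-0.16), and in Foxp2 Rspo3 neurons, with 96.7, 100.3, 91.1 and 80.6 (-0.15). In Ndst4 Cdh23 neurons, C57J 1 and BALB/c were nearly equal. The Esr1 Otx2os1 neurons, a cluster with the estrogen receptor gene Esr1, were at 95.1, 76.2, 34.2 and 51.6 (-0.94). The clusters not named here had fitted log2 fold changes of -0.81 (Pth2r Nxph1) to -0.38 (Sema3a Tmem132c). In the order of mean levels, 0 of 12 pairs of neighbouring clusters had separate ranges, each of which holds both backgrounds. Taken library by library, Pax6 Eya4 neurons were above Pde1c Mob3b neurons, the next in the order, in every library. Pde1c Mob3b neurons were above Foxp2 Rspo3 neurons, which followed them, only in the C57J libraries. Among C57J libraries alone the clusters ranged from 48.8 to 225, and among nude and BALB/c from 34.2 to 91.1. Nude was below BALB/c in 9 of 13 clusters.

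**Figure D3:**
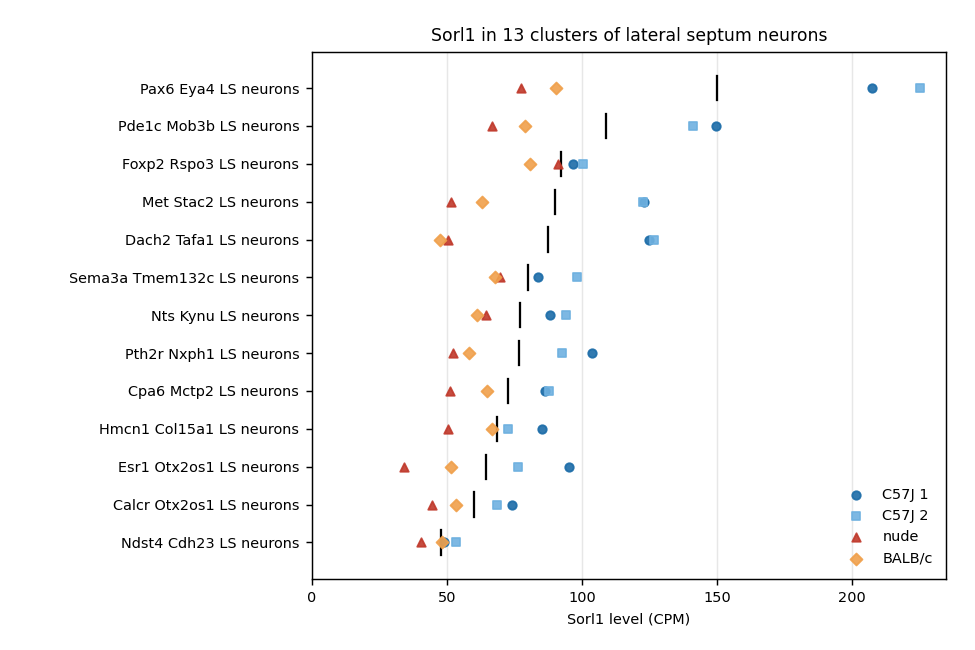
Sorl1 (CPM, linear axis from 0) in the 13 clusters of LS neurons, with 1 point per library and a black bar at the mean of the 4 libraries, in the order of the means. The nude and BALB/c points are left of both C57J points in every cluster, with the widest gap in Pax6 Eya4 neurons.

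The share of nuclei with a Sorl1 UMI depends on depth, and unthinned it was 49.9% and 43.8% (C57J 1 and C57J 2), 29.3% (nude) and 49.8% (BALB/c) of LS neurons, at medians of 8083, 6460.5, 6372 and 12741 UMIs. After every nucleus was thinned to 1000 UMIs, which left out no LS neuron, the shares were 10.1% and 9.31% (C57J 1 and C57J 2), 5.72% (nude) and 5.70% (BALB/c). The exact 95% intervals were 9.28 to 10.9% and 8.52 to 10.2% for the C57J libraries, and 5.15 to 6.34% and 5.03 to 6.43% for nude and BALB/c. These intervals take nuclei as units and cover their sampling only, not the spread between libraries or mice. The thinned pairs did not overlap, whereas unthinned the deeper BALB/c library reached the C57J range. In oligodendrocyte precursors, a large class with little Sorl1, the thinned shares were 2.14% and 3.51% (C57J 1 and C57J 2), 2.85% (nude) and 2.81% (BALB/c) at unthinned medians of 3224, 2525, 2461 and 5344 UMIs, and thinning left out at most 2 nuclei of a library.

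Markers of other cells moved with the library in LS neurons. The summed level of 5 oligodendrocyte markers there was 439, 436, 298 and 271 CPM in C57J 1, C57J 2, nude and BALB/c, against 13652, 11916, 9781 and 15982 in oligodendrocytes, and that of 4 astrocyte markers was 479, 339, 368 and 265. None of these markers was at 0 in the class. The part of such RNA in the level of Sorl1 was not tested. Neuron markers summed to 16309.6, 15324, 16207 and 16643 and the 5 LS markers to 1969, 1978, 2045 and 1989. In a class sum, a change in the mix of LS neurons and a change per nucleus cannot be told apart, and with equal weight for every cluster the log2 ratio of Sorl1 was -0.79.

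The other members marked different LS clusters. Sorcs1 was highest in Pde1c Mob3b neurons (1404 to 1669.9 CPM over the libraries) and in Dach2 Tafa1 neurons (1235 to 1359), which were separate from each other and from the next cluster, and lowest in Sema3a Tmem132c neurons (276 to 418). Sorcs3 was highest in Esr1 Otx2os1 neurons (729 to 798), followed by Pde1c Mob3b (471 to 535) and Calcr Otx2os1 neurons (441 to 466), each separate from the next, and was lowest in Foxp2 Rspo3 neurons (71.3 to 129). Sorcs2 divided the clusters into a group at a mean of 194 or more and a group at 137 or less, with Pax6 Eya4 neurons (224 to 318) at the top and Esr1 Otx2os1 neurons (62.8 to 84.9) at the bottom. Sort1 was the flattest, with a 1.96-fold range between Pax6 Eya4 (88.1 to 101) and Cpa6 Mctp2 neurons (40.7 to 54.5) and no separate neighbours.

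Between the strain backgrounds, these 4 members were lower without overlap in 21 of 52 pairs of member and LS cluster (40.4%) and higher in 2 (3.85%), against 23.9% and 17.3% of all gene and cluster pairs. Fitted log2 fold changes below -0.5 were found in 4 of them and above 0.5 in 1, against 9.05% and 6.25% of pairs. Sorcs3 accounted for 3 of the 4. In Met Stac2 neurons it was 259 and 278 CPM in C57J 1 and C57J 2, 162 in nude and 138 in BALB/c (-0.79), in Hmcn1 Col15a1 neurons 231, 241, 169.7 and 155 (-0.54) and in Cpa6 Mctp2 neurons 408, 364, 275 and 269 (-0.51). Sorcs1 in Pax6 Eya4 neurons, at 487, 404, 299 and 241 (-0.70), was the remaining one. The single rise was that of Sorcs3 in Nts Kynu neurons, at 149.9, 126, 134 and 236 (0.50), which came from BALB/c alone, as nude lay within the C57J range. Sorcs1 was higher without overlap in Foxp2 Rspo3 (1033, 988, 1203 and 1343) and Hmcn1 Col15a1 neurons (989.6, 877, 999.8 and 1021). No member other than Sorl1 was lower in every cluster.

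**Figure D4:**
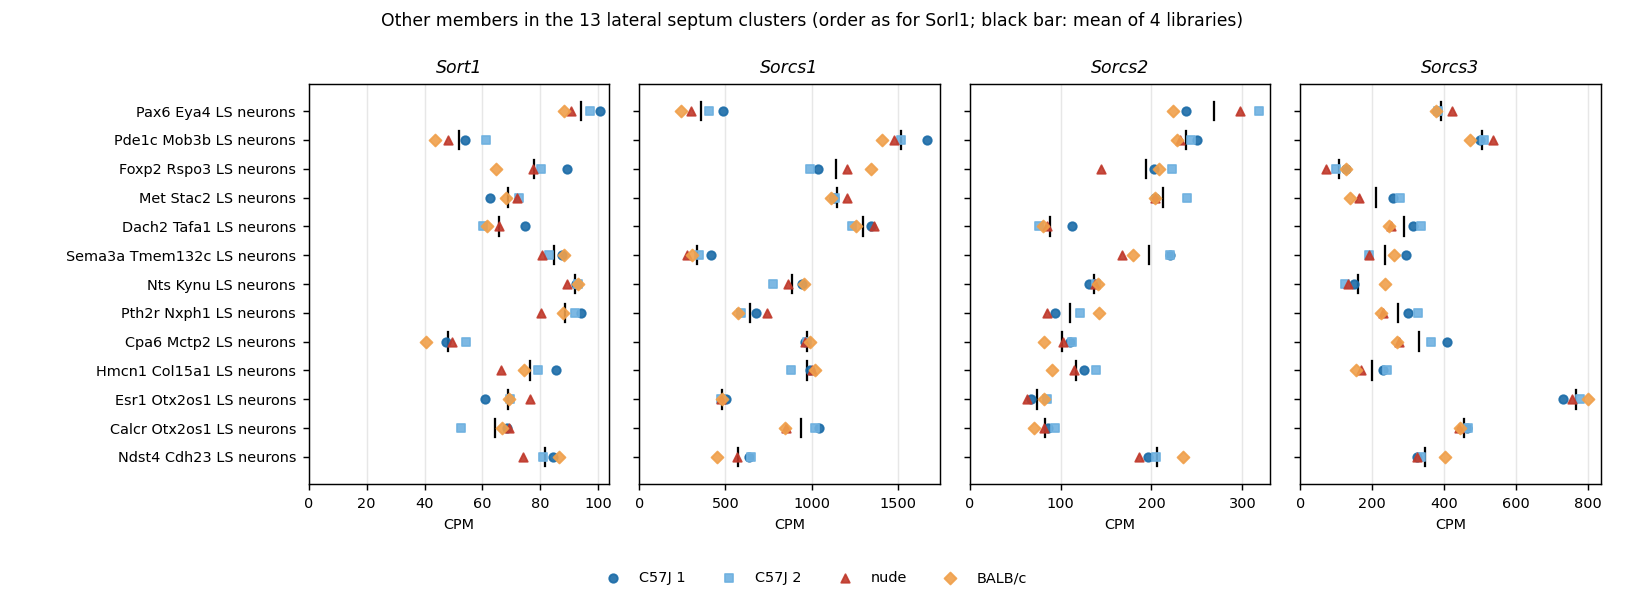
Sort1, Sorcs1, Sorcs2 and Sorcs3 (CPM, linear axes from 0 that differ between genes) in the 13 clusters of LS neurons, in the cluster order of Sorl1, with 1 point per library and a black bar at the mean of the 4 libraries. Sorcs3 in Esr1 Otx2os1 neurons (729 to 798) and Sorcs1 in Pde1c Mob3b neurons (1404 to 1669.9) stand above all other clusters.

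Outside LS neurons, the question was whether the level of any member differed between the BALB/c background (nude and BALB/c libraries) and C57J in other classes. Each member passed the filter on low counts in each of 12 classes, which gave 60 tests, adjusted within a class over all genes by the Benjamini-Hochberg method (edgeR quasi-likelihood test). The thresholds for a call were 0.05 for the adjusted p and 0.5 for the size of the log2 fold change. With 2 libraries in each group, a p-value rests on the spread within the groups. That spread holds the difference of nude from BALB/c, that of the C57J batches and that between pools of mice. These cannot be told apart. Of the 60 pairs, 1 was called, against 0.33% of all gene and class pairs. In simulated data, 7.14% of log2 fold changes of 1 in size were recovered in oligodendrocytes and 62.8% in Lhx6 GABAergic neurons. A pair that was not called may therefore still differ. The groups did not overlap in 14 pairs towards lower (23.3%) and in 8 towards higher levels (13.3%), close to the 20.9% and 15.6% of all genes. An unadjusted p below 0.05 (edgeR) was found in 10 of the 60 pairs, a larger share than the 7.56% of all pairs. The pairs share the libraries and are not independent of each other.

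Sorcs1 fell in Lhx6 GABAergic neurons. Its level was 527 and 504 CPM in C57J 1 and C57J 2, 347 in nude and 346 in BALB/c, from 1491, 1416, 1140 and 2180 UMIs. Nude and BALB/c were equal within counting error and below both C57J libraries. The log2 fold change was -0.56 (SE 0.094), with an adjusted p of 0.028 (edgeR), among 100 genes called of 12531 in this class (0.798%). Within batch 2, the log2 ratios to C57J 2 were -0.54 for nude and -0.54 for BALB/c. Without the nude library the log2 fold change was -0.55 with an adjusted p of 0.63, and without BALB/c -0.56 with 0.88, so neither fit with 1 library in the group made the call. After thinning to 1000 UMIs per nucleus the value was -0.29, which was not called (adjusted p = 0.73). The thinned shares of nuclei with a Sorcs1 UMI were 37.2% and 28.3% (C57J 1 and C57J 2), 27.2% (nude) and 26.5% (BALB/c). At this equal depth C57J 2, of the same batch, lay near nude and BALB/c, and C57J 1 alone stood above them. A marker of the class moved with it. Nxph1 was at 1034, 729, 519.7 and 556 CPM in the same order, whereas Lhx6 was at 53.1, 45.2, 57.9 and 55.6, Sox6 at 931, 925, 893 and 1018 and Elavl2 at 737, 821, 914 and 1093. The summed level of the 4 Lhx6 GABAergic markers was 2755, 2519.9, 2385 and 2723. Whether the mix of Lhx6 neurons differed between the libraries was not tested.

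In striatal neurons Sorcs1 was not called. In Rarb Prkch striatal neurons it was 488 and 499 CPM in C57J 1 and C57J 2, 964 in nude and 613 in BALB/c, with a fitted difference of 0.69 (SE 0.18) on the log2 scale that was not called (adjusted p = 0.19) and was 0.34 to 0.98 with 1 library left out. In Foxp2 Chst9 striatal neurons it was 513, 453, 504 and 843 (0.51, SE 0.19, adjusted p = 0.43), where BALB/c alone was above the C57J libraries. With 1 library left out this value was 0.072 to 0.83, and it was called without nude. In Gpr149 Pkib striatal neurons, with too few nuclei for a fit, the levels were 153, 165, 187 and 58.96. Whether the response of Sorcs1 differed between classes was not tested.

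The striatum lies beside the LS, and the number of its nuclei varied, with 760, 389, 249 and 294 Rarb Prkch and 481, 255, 199 and 114 Foxp2 Chst9 nuclei in C57J 1, C57J 2, nude and BALB/c. The summed level of 5 striatal markers in the former was 4151, 3798, 3029 and 3651 CPM, lowest in nude, the library in which Sorcs1 was highest. The part of this in the result was not tested. Sorcs1 was lower without overlap in 4 further neuron classes, with log2 fold changes of -0.85 in Ebf2 Ebf3, -0.37 in Slc17a8 Pde11a, -0.34 in Bnc2 Onecut2 and -0.25 in Pde11a Baiap3 neurons, and none was called (adjusted p of 0.45 or more, edgeR). The Ebf2 Ebf3 values were 357, 396, 268 and 152.

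Sorl1, lower in LS neurons, was not called in any of the 12 other classes, and its direction varied. In Lhx6 GABAergic neurons it was 82.1 and 89.3 CPM in C57J 1 and C57J 2, 105 in nude and 138 in BALB/c, which gave 0.53 (SE 0.15) on the log2 scale with an adjusted p of 0.21 (edgeR). In Bnc2 Onecut2 neurons it was 37.9, 39.2, 50.3 and 59.6 (0.52, SE 0.16, adjusted p = 0.29), and after thinning to 1000 UMIs per nucleus this reversed to -0.14. The thinned shares of Bnc2 Onecut2 nuclei with a Sorl1 UMI were 5.67% and 4.66% (C57J 1 and C57J 2), 4.66% (nude) and 4.81% (BALB/c). Unthinned, both libraries of the BALB/c background were above both C57J libraries in these classes and in Ebf2 Ebf3 neurons (49.6, 50.3, 54.9 and 61.4). The thinned shares of Ebf2 Ebf3 nuclei with a Sorl1 UMI overlapped, at 6.90% and 5.00% (C57J 1 and C57J 2), 4.17% (nude) and 6.35% (BALB/c). Lower values without overlap were found in neuroblasts and dividing nuclei, with 65.2, 75.6, 49.1 and 19.96 (-1.17, SE 0.39, adjusted p = 0.81), from 45, 35, 22 and 23 UMIs. In microglia they were 72.1, 66.1, 45.3 and 37.6 (-0.69, SE 0.30, adjusted p = 0.94), and oligodendrocyte precursors (-0.44) and oligodendrocytes (-0.18) also separated. In the striatal classes the nude library stood below the others, with 138, 132, 89.1 and 137 in Rarb Prkch and 123, 132, 84.0 and 138 in Foxp2 Chst9 striatal neurons, and it was also the lowest in Slc17a8 Pde11a neurons (115, 110.1, 72.7 and 132). In all of these, BALB/c lay within or above the C57J range.

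For Sort1 in oligodendrocyte precursors, lower in nude and BALB/c without overlap, the log2 fold change was -0.78 (SE 0.25) with an adjusted p of 0.46 (edgeR), from 74, 62, 44 and 62 UMIs. In mature oligodendrocytes, where its level was highest, it was higher in nude and BALB/c without overlap (0.43, SE 0.25, adjusted p = 0.999). Elsewhere the log2 fold changes of Sort1 lay between -0.089 and 0.31. Sorcs2 was lower in nude than in any other library in Rarb Prkch striatal neurons (91.2, 94.4, 40.5 and 82.2, -0.49, SE 0.25, adjusted p = 0.59), where the nude value rests on 50 UMIs. In microglia it was 38.6, 56.9, 43.2 and 15.7 (-0.72, SE 0.52), from 23, 31, 21 and 13 UMIs. Sorcs3 had log2 fold changes of -0.41 (astrocytes) to 0.22 (Foxp2 Chst9 striatal neurons), and none was called. With 1 library left out, some values moved by more than 1.5 times. The log2 fold change was -1.73 to -0.48 for Sorl1 in neuroblasts and dividing nuclei, -1.03 to -0.49 for Sort1 in oligodendrocyte precursors, -1.54 to -0.076 for Sorcs2 in microglia and -1.23 to -0.51 for Sorcs1 in Ebf2 Ebf3 neurons. The value furthest from 0 was in each case that without nude, which passed the threshold (edgeR), and the nearest that without BALB/c. Without nude, the group is the BALB/c library alone.

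**Figure D5:**
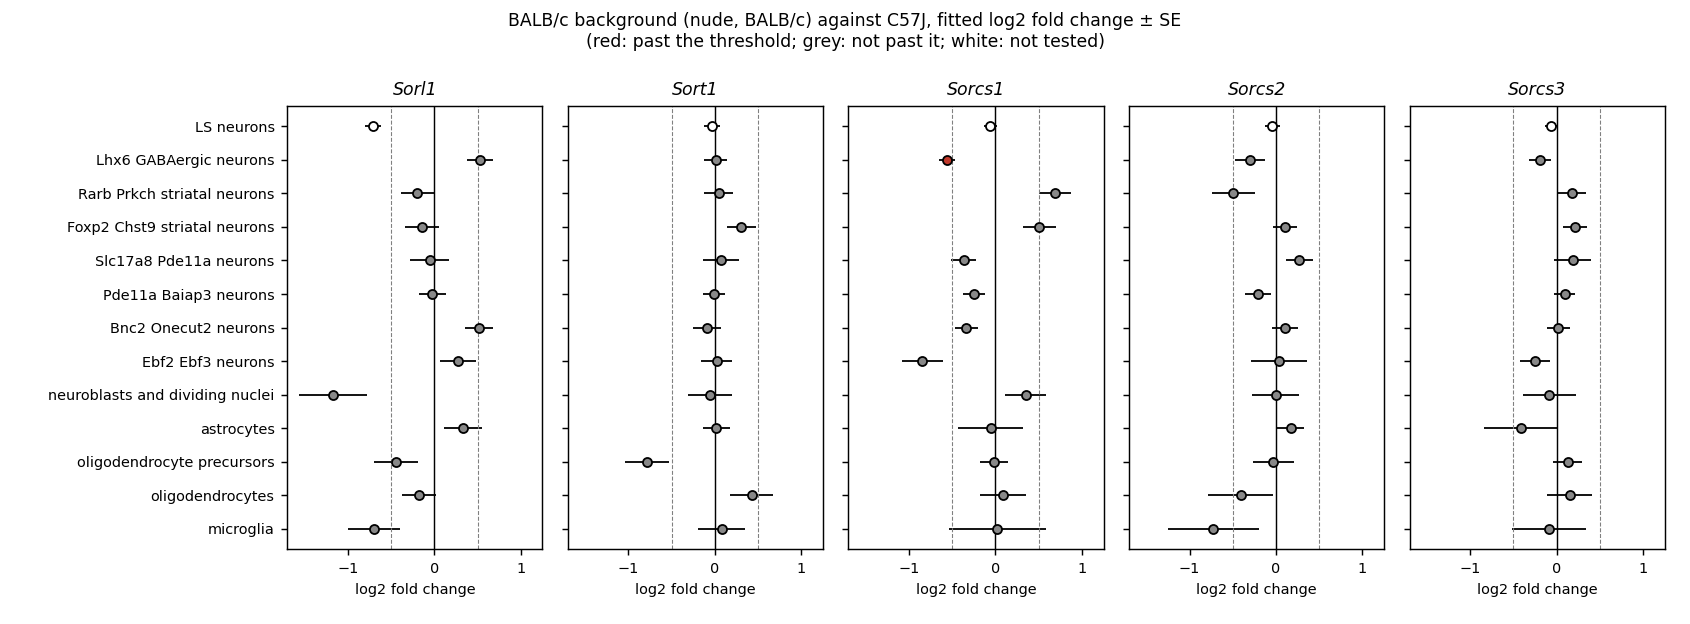
Fitted log2 fold change (BALB/c background, nude and BALB/c, against C57J; point) with its standard error (bar) for each member in LS neurons and 12 other classes. Dashed lines mark -0.5 and 0.5, red marks the single called pair (Sorcs1 in Lhx6 GABAergic neurons, -0.56), grey marks tested pairs that were not called and white the LS neurons, which were not tested. Sorl1 lies at -0.71 in LS neurons and at 0.53 in Lhx6 GABAergic neurons.

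In astrocytes and microglia, Sorcs1 moved with the level of neuron markers over the libraries, as did Sorcs3 in microglia and oligodendrocytes. Sorcs3 in astrocytes did so only in part. In oligodendrocyte precursors neither Sorcs1 nor Sorcs3 did. Sorcs1 in astrocytes was 167 and 232 CPM in C57J 1 and C57J 2, 257 in nude and 112 in BALB/c, Sorcs3 was 68.04, 107, 91.01 and 36.1, and the summed level of 4 neuron markers there was 2745, 3415, 3958 and 1805, against 16309.6, 15324, 16207 and 16643 in LS neurons. Nude was highest in Sorcs1 and in the neuron markers, C57J 2 was highest in Sorcs3, and BALB/c was lowest in all of them. In microglia, Sorcs1, Sorcs3 and the neuron markers all had the order of the neuron markers in astrocytes. The values were 213, 321, 401 and 119.9 for Sorcs1, 97.2, 121, 140.0 and 60.6 for Sorcs3 and 4023, 5247, 5701 and 2670.0 for the neuron markers. None of the 4 neuron markers was at 0 in either class. How much of the Sorcs1 and Sorcs3 of these classes is RNA of neurons was not tested. Sort1 and Sorl1 in astrocytes did not follow this order, with 132, 132, 122 and 132 for Sort1 and 109, 126, 118 and 161 for Sorl1. Nor did Sorcs1 in oligodendrocytes (906, 879.6, 887 and 939), where the neuron markers were at 2970.5, 3366, 4584 and 1759. Sorcs3 in oligodendrocytes did follow the neuron markers, from 121 in BALB/c, the lowest, to 205 in nude, the highest. The part of neuron RNA in it was not tested. In oligodendrocyte precursors the neuron markers were at 2782, 3231, 3568 and 1786, Sorcs1 at 948, 824, 856 and 810.1 and Sorcs3 at 653, 594, 601 and 691, highest in BALB/c, where the neuron markers were lowest.

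The partners of the family were described by a list of 26 genes, composed of ligands and cargo (App, Bdnf, Ntf3, Grn, Psap, Nts, Apoe, Lpl, Nlgn1), co-receptors (Ngfr, Ntrk2, Ntrk3), adaptors and sorting proteins (Vps35, Vps26a, Vps26b, Vps29, Snx27, Gga1, Gga2, Gga3, Pacs1, Pick1, Ap2a1) and proteases (Furin, Adam10, Adam17). In LS neurons all 26 passed the filter and 0 were called in either direction (edgeR), against 2.15% of all genes, and the median log2 fold change of the list was -0.022, against -0.0072 for all genes. In the 12 other classes 20 to 24 of the 26 were tested and 0 were called (edgeR), against 0.33% of all gene and class pairs, and DESeq2 called 0 of the list in any class. Of the 270 pairs of list gene and class, 13 (4.81%) had an unadjusted p under 0.05 (edgeR), against 7.56% of all pairs, and in LS neurons 1 of 26 (3.85%), against 14.5% of all genes. In the 12 classes the median of the list lay between -0.095 and 0.10. The list gene with the largest log2 fold change in LS neurons was Lpl, the lipoprotein lipase and a ligand of sortilins, at 0.851, 0.586, 0.888 and 1.24 CPM (0.58, SE 0.35, adjusted p = 0.54, edgeR). In Lhx6 GABAergic neurons it was Gga1, an adaptor that sorts receptors from the Golgi, at 34.3, 33.1, 24.1 and 20.5 (-0.60, adjusted p = 0.25). In Pde11a Baiap3 and in Bnc2 Onecut2 neurons it was Grn, the progranulin gene, at 11.7, 10.2, 5.53 and 7.01 (-0.82, adjusted p = 0.47) and 11.4, 7.36, 5.24 and 6.15 (-0.72, adjusted p = 0.62).

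Pick1, a scaffold that binds receptor tails, was the list gene furthest from 0 in microglia (-1.18, adjusted p = 0.92), oligodendrocytes (-0.64, adjusted p = 0.91) and Foxp2 Chst9 striatal neurons (-0.76, adjusted p = 0.47), all edgeR. In oligodendrocytes it was 25.7, 34.8, 19.9 and 17.7 CPM, with nude and BALB/c below both C57J libraries. The remaining classes were led by Lpl in Rarb Prkch striatal neurons (0.77), Bdnf in astrocytes (0.86), Adam17 in oligodendrocyte precursors (0.53), Furin in Slc17a8 Pde11a neurons (0.49), Adam17 in neuroblasts and dividing nuclei (0.44) and Ap2a1 in Ebf2 Ebf3 neurons (-0.42), none of which was called. Of these, Bdnf and Furin were above the C57J range in nude alone. Adam17 was above it in BALB/c alone in both of its classes. For Lpl and Ap2a1, both nude and BALB/c lay outside the C57J range.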

How the data were processed

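Nuclei of the lateral septum were profiled by droplet snRNA-seq (10x) in 4 libraries of 3 pooled mice each. The authors aligned the reads with Cell Ranger 7.0.1 to mm10, per the labels and the study's methods, and deposited raw UMI counts per gene and nucleus, and whether intronic reads were included is not given in the sources used here. Nuclei within the gene limits of 200 and 6000, the UMI limits of 300 and 50000 and a maximum of 2% mitochondrial UMIs were kept, as in the study's methods, and predicted doublets were removed at a rate of 0.8% per 1000 nuclei. This left 49425 nuclei at a median of 4031 to 8332 UMIs, and the members' precision is set by the UMIs given beside their levels. Counts were scaled to the total UMIs of each nucleus and put on a log scale. Of these, 3000 variable genes were kept, without the members, mitochondrial genes and 6 sex-linked genes, and each was centred within each library. The values were reduced to 40 components, joined across libraries by 6 neighbours per library and clustered with leidenalg 0.10.2 at a resolution of 1 (Python 3.11.15). Clusters were named from fixed marker lists, or by their 2 leading genes.

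UMI counts were summed per library and class, for classes with 50 or more nuclei in every library, and fitted with edgeR 4.0.16 (R 4.3.3; filterByExpr, TMM, glmQLFit, glmQLFTest) over all genes with Benjamini-Hochberg adjustment, nude and BALB/c against both C57J libraries, and SEs were taken from the F statistic. The script was tested on simulated data with known changes. Of simulated log2 fold changes of 1 in size, 20.7% were recovered in astrocytes, 7.14% in oligodendrocytes and 62.8% in Lhx6 GABAergic neurons. Of those of 2 in size, 70.8%, 78.4% and 94.3% were recovered. The named genes were the 5 members, the gene of the list of partners with the largest change in each class and the 3 genes most like each member. The members, the list of partners and the marker lists were chosen with earlier results of these data known, and 4 genes of the list of partners are not reported here. Alternatives were DESeq2 1.42.0, RLE size factors, no filter on low counts, predicted doublets kept, nuclei thinned to 1000 UMIs, stricter quality limits (500 genes and 1000 UMIs), a resolution of 2, each library left out, for Sorl1 other weightings of nuclei and clusters, and for astrocytes, after seeing the data, the class without a cluster with ependymal markers. Every count in the tables named a gene. A public data set that the study also used was not analysed here.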

Additional observations from a re-analysis of the deposited data

Results flagged for a closer look

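Every value here is the fitted log2 fold change of a member in a class where nude and BALB/c did not overlap the C57J pair. Outside LS neurons such pairs were 23.3% of the members' pairs in the lower and 13.3% in the higher direction, near the 20.9% and 15.6% of all gene and class pairs. Whether the fold changes differed between classes was not tested.

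Sorl1 was lower in LS neurons (-0.71), neuroblasts and dividing nuclei (-1.17), microglia (-0.69), oligodendrocyte precursors (-0.44) and oligodendrocytes (-0.18), whereas it was higher in Lhx6 GABAergic (0.53), Bnc2 Onecut2 (0.52, but -0.14 after thinning to 1000 UMIs per nucleus) and Ebf2 Ebf3 neurons (0.27). After thinning, the shares of nuclei with a Sorl1 UMI overlapped between the groups in Bnc2 Onecut2 neurons, Ebf2 Ebf3 neurons and oligodendrocyte precursors. In the other classes of this list they stayed separate. Sort1 was lower in oligodendrocyte precursors (-0.78) and higher in oligodendrocytes (0.43) and Foxp2 Chst9 striatal neurons (0.31). In Foxp2 Chst9 striatal neurons the thinned shares of nuclei with a Sort1 UMI overlapped between the groups.

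Sorcs1 was lower in Ebf2 Ebf3 (-0.85), Lhx6 GABAergic (-0.56), Slc17a8 Pde11a (-0.37), Bnc2 Onecut2 (-0.34) and Pde11a Baiap3 neurons (-0.25), and higher in Rarb Prkch striatal neurons (0.69) and in neuroblasts and dividing nuclei (0.35). Sorcs2 was lower in Rarb Prkch striatal (-0.49), Lhx6 GABAergic (-0.30) and Pde11a Baiap3 neurons (-0.21) and higher in Slc17a8 Pde11a neurons (0.27). Sorcs3 was lower in Ebf2 Ebf3 neurons (-0.25) and, by little, in LS neurons (-0.060). After thinning, the shares of nuclei with a Sorcs1 UMI overlapped in Ebf2 Ebf3 neurons, Pde11a Baiap3 neurons and neuroblasts and dividing nuclei. Those with a Sorcs2 UMI overlapped in Rarb Prkch striatal neurons. Apart from Sorcs1 in Lhx6 GABAergic neurons, none of the pairs outside LS neurons passed the threshold.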

How the results depend on the processing

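Of 60 pairs of member and class outside LS neurons, 1 was called, and 3 were called without the filter on low counts and 0 with nuclei thinned to 1000 UMIs. With a library left out, the count ranged from 0 (without BALB/c) to 7 (without nude). Over all genes the 447 calls became 2628 without the filter and 97 after thinning, and 559 without BALB/c to 4577 without nude with a library left out. A group then holds a single library, which is assumed to vary like the others. The log2 fold change of Sorcs1 in Lhx6 GABAergic neurons was -0.29 after thinning and -0.60 to -0.52 with a library left out, and the call was lost after thinning and without nude or BALB/c. Sorl1 in Bnc2 Onecut2 neurons reversed to -0.14 after thinning. The cause of these changes was not tested. DESeq2, RLE size factors, retained doublets, stricter limits and a resolution of 2 kept the call of Sorcs1 in Lhx6 GABAergic neurons, and a mean over nuclei, chosen after seeing the data, gave -0.51. Sorl1 in LS neurons was -0.80 (without BALB/c) to -0.62 (without nude), both further from -0.71 than the spread of the libraries, and lower under all its other alternatives. Of 99 alternatives of 9 further fold changes named in the text, 91 kept direction and side of the threshold, 7 passed it and 1 reversed. Among 200 recomputed levels, 179 moved by less than 1 SD and 21 by more, 10 of them with predicted doublets kept, 9 after thinning and 2 at a resolution of 2. These were 0.791 to 1.92 times the reported level, and with doublets kept, Sorcs3 and Sorcs2 in microglia rose to 201 and 67.2 CPM and Sorcs2 in Ebf2 Ebf3 neurons to 40.7 CPM, each over 1.5 times. Few UMIs limit the members in neuroblasts, microglia and newly forming oligodendrocytes. No paired analysis was possible because, beyond the shared batch, the labels match no pool of mice to a pool of another strain.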
